A study of Mus musculus with 17 samples.

Results

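Mammary glands of mice with a tetracycline-controlled aromatase transgene (AROM) were compared with glands of mice lacking exon 11 of Brca1 in MMTV-Cre-expressing cells (BRCA), once in the columns labelled single-end and once in those labelled paired-end. No wild-type value entered either comparison. The genes compared were those with 1 symbol of their own and at least 1 FPKM (fragments scaled to the length of the transcript and to the total mapped) in at least 2 of the 4 columns. They numbered 11900 of the 30843 loci in the table, and a further 8520 genes with their own symbol fell below the minimum. The AROM genotype is given as tet-op-CYP19A1 MMTV-rtTA, in which the mouse mammary tumour virus (MMTV) promoter drives the transactivator that the tet operator answers to. That promoter is active mainly in epithelium and is also used by some lymphoid cells. Whether and when an inducer was given is not stated in the labels. The BRCA genotype is given as Brca1fl11/fl11/MMTV-Cre/p53+/-, so these mice also had 1 functional Trp53 allele, which the AROM mice are not labelled as sharing. All were labelled as nulliparous female C57Bl/6 mice, the labels give no ages, and the whole gland was used. The labels list 17 libraries of 4 genotypes, 9 of them from these genotypes (2 AROM and 2 BRCA single-end, 3 AROM and 2 BRCA paired-end). Each genotype and layout has a single pooled column of the authors' values. Replicate error is therefore unknown for every value, and no test or p-value is given. By the labels' protocol, libraries were read by both methods, and the labels do not tie a paired-end library to a single-end one or to an animal. A difference seen in both layouts is therefore no independent replication.

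Aromatase converts androgens to estrogens, and estrogen acts in the gland on a subset of luminal cells that carry the estrogen receptor and signal to their neighbours through paracrine factors. BRCA1 acts in homologous recombination, and loss of its full-length form in mammary epithelium together with a lowered p53 dose is a model of hereditary breast cancer. A whole gland of a nulliparous mouse holds ducts of luminal and basal cells inside a large fat pad, with vessels, nerves, immune cells and a lymph node, and body-wall muscle can be taken with it. In such bulk samples, fewer cells of a type and less RNA per cell cannot be told apart.

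Values below are FPKM, given as AROM against BRCA with the single-end columns first. Differences are AROM minus BRCA on the log2(FPKM + 1) scale, which understates the ratio of low genes, again single-end first. Genes at least 2-fold apart on that scale were called higher or lower in AROM. Sequencing depth cannot be read from the table. The genes analysed had a median FPKM of 9.03 against 9.65 single-end and 7.47 against 9.35 paired-end, so the paired-end AROM column stood lowest. Over all loci FPKM summed to 1.05e+06 against 894860 single-end and 1.2e+08 against 6.24e+06 paired-end. The highest paired-end locus was at 3.58e+07 against 871626 FPKM. Among the genes analysed the highest paired-end value was 18673.5 against 18587.4 FPKM, so those loci were not among them. Their effect on other values was not tested. Markers of luminal cells, of fat cells and of skeletal muscle, which can be taken with the gland, were present. Krt8, a keratin of luminal cells, was at 111 against 211 FPKM single-end and 63.4 against 208 FPKM paired-end. Adipoq, the adiponectin gene of fat cells, was at 1384 against 649 FPKM single-end and 1885 against 600.00 FPKM paired-end. Acta1, skeletal muscle actin, was at 7966 against 3975 FPKM single-end and 5598 against 3999 FPKM paired-end.

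The BRCA columns of the 2 layouts nearly coincided, and the AROM columns did not. Between the BRCA columns the median absolute difference per gene was 0.0582 (log2), the 5th to 95th percentile ran from -0.20 to 0.12, and 2.05% of genes were past 1.5-fold. Between the AROM columns the median absolute difference was 0.287, the 5th to 95th percentile ran from -0.63 to 0.41, and 9.83% were past 1.5-fold. After each difference was centred on its median, the median absolute values were 0.184 for AROM and 0.0496 for BRCA. In all, 76.9% of genes were lower in the paired-end than in the single-end AROM column. The labels give 3 paired-end and 2 single-end AROM libraries, against 2 and 2 for BRCA. In AROM the layout and the libraries behind each column cannot be told apart.

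**Figure D1:**
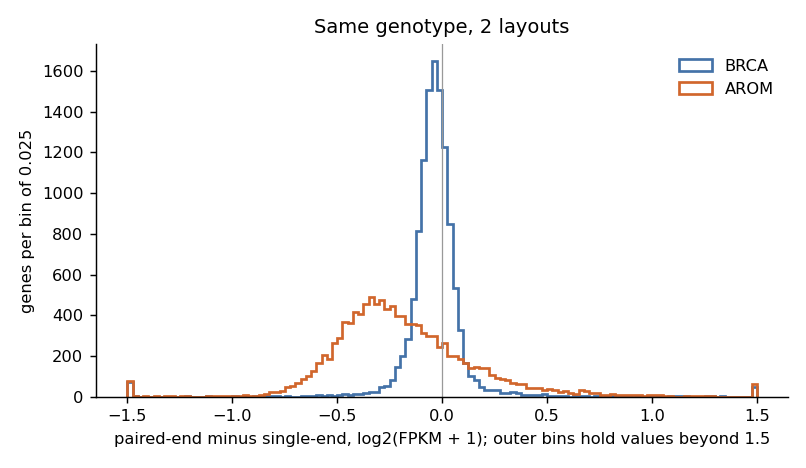
Histogram of paired-end minus single-end log2(FPKM + 1) over the 11900 genes analysed, with AROM in orange and BRCA in blue; values beyond 1.5 are held in the outer bins. The BRCA curve is narrow around its median of -0.036, and the AROM curve is broad around -0.24.

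The genes altered by design were looked at first. Brca1 was at 0.881 against 3.28 FPKM single-end and 0.536 against 3.29 FPKM paired-end, that is higher in BRCA in both layouts (differences of -1.19 and -1.48). The value covers the whole locus and does not measure exon 11, so it checks nothing about the deletion. Trp53, the gene of p53, was at 29.5 against 12.3 FPKM single-end and 20.9 against 12.1 FPKM paired-end, higher in AROM by 1.196 and 0.74, so it passed 2-fold in the single-end columns only. Esr1, the gene of estrogen receptor alpha, was at 8.41 against 6.59 FPKM single-end and 7.87 against 6.48 FPKM paired-end, and the differences of 0.31 and 0.25 fell short of 2-fold in both. Mouse Cyp19a1 was listed at 0.0591 and 0.0502 FPKM in the AROM columns and at 0 in both BRCA columns, under the minimum. The transgene is named as the human gene, so this value does not measure it. Pgr, the progesterone receptor gene and a known estrogen target, was also under the minimum at 1.496 against 0.654 FPKM single-end and 0.782 against 0.667 FPKM paired-end.

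Across all genes, the single-end columns gave 992 genes past 2-fold, 350 higher in AROM (2.94% of the 11900) and 642 lower (5.39%). The paired-end columns gave 1814, 525 higher (4.41%) and 1289 lower (10.8%). Past 2-fold the same way in both layouts were 168 higher genes (1.41%) and 585 lower genes (4.92%), and 15 genes (0.126%) passed it in opposite ways. The counts of each gene list below are to be read beside these shares. A further 224 genes passed it in the single-end columns alone and 1046 in the paired-end columns alone. The directions held in different shares. Of the genes lower in AROM single-end, 91.1% were also lower paired-end, and these made up 45.4% of the paired-end list. Of those higher single-end, 48% were also higher paired-end, and these made up 32% of the paired-end list. The sign held more often than the call, since 93.7% of the higher and 97.4% of the lower single-end genes lay on the same side of 0 paired-end.

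The asymmetry depended on how the columns were scaled. As deposited, the median difference over all genes was -0.038 single-end and -0.23 paired-end, so every paired-end difference sits on a background shifted towards lower in AROM. Higher genes made up 35.3% of the single-end and 28.9% of the paired-end calls. With each column scaled by its median ratio to the 4-column geometric mean, these shares became 41.7% and 55.4%, and with quantile normalization 43.0% and 49.2%. Under median-ratio scaling 65.6% of the single-end higher genes and 87.3% of the lower ones were called the same way paired-end. The genes called higher in both layouts went from 168 to 265 with median-ratio scaling and to 249 with quantile normalization, and those called lower in both from 585 to 493 and 431. Whether the paired-end calls lean to lower or to higher therefore rests on the scaling, and the number shared by the layouts moves with it.

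Across the 11900 genes the 2 sets of differences had a Pearson r of 0.793 and a Spearman rho of 0.890. This describes genes, which are not independent replicates, and all genes of a layout share the same columns. Without the 76 genes whose symbols begin with Mir or Snor, r was 0.882 and rho 0.900. The share held did not follow size in one direction. Of the 269 genes higher single-end by 1 to 1.5 (log2), 40.5% were also called paired-end, as were 80.0% of the 50 higher by 1.5 to 2, 60.0% of the 15 higher by 2 to 3 and 62.5% of the 16 higher by over 3. For the lower genes the shares in these ranges were 90.5% of 440, 95.2% of 125, 89.8% of 59 and 83.3% of 18. Among the genes called in exactly 1 layout, 1178 of 1270 (92.8%) moved more between the AROM columns than between the BRCA columns. The same share over all genes was not counted. The AROM columns differed more over all genes too (median absolute difference of 0.287 against 0.0582), so the 92.8% is no trait shown to be particular to these genes. Of the paired-end-only genes, 853 of 1046 were at least 1.5-fold the same way single-end, and of the single-end-only genes 134 of 224 were so paired-end.

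**Figure D2:**
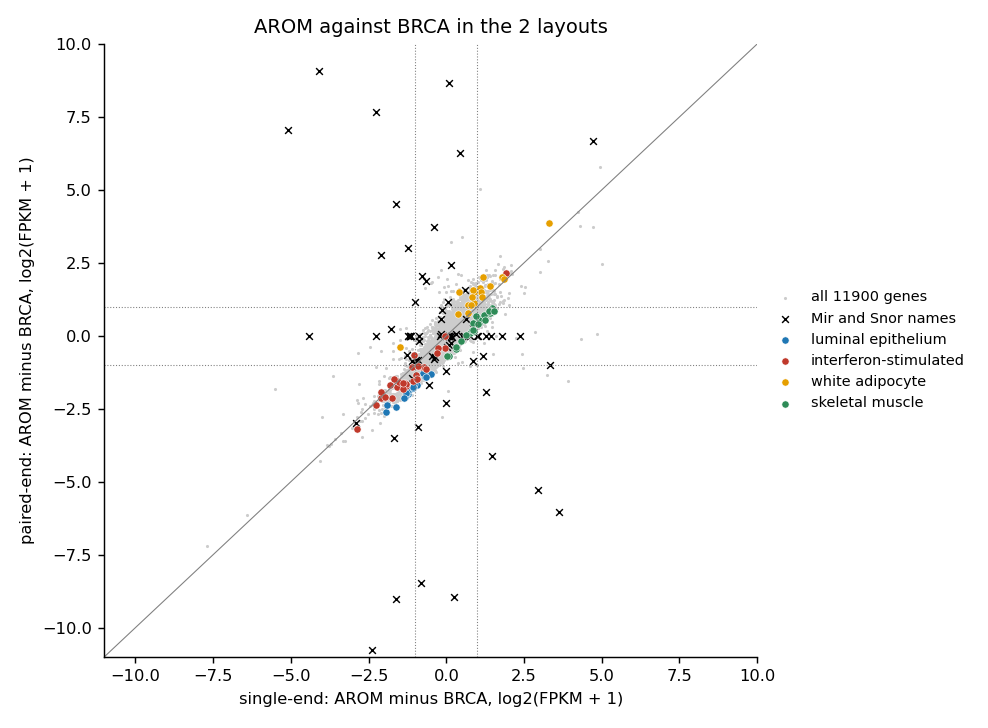
Each point is a gene, with AROM minus BRCA on the log2(FPKM + 1) scale in the single-end columns (x axis) and the paired-end columns (y axis); dotted lines mark 2-fold and the solid line equality. Most genes lie along the line, 585 in the lower left and 168 in the upper right beyond 2-fold, while the crosses of the Mir and Snor names scatter away from it.

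Several of the single genes furthest apart were almost unread in one genotype. The agouti gene, symbol a, codes for a signalling protein that switches pigment synthesis, and its nonagouti allele gives C57Bl/6 mice their black coat. It was at 0.0955 against 227 FPKM single-end and 0.769 against 258 FPKM paired-end, the gene furthest below BRCA in both layouts (differences of -7.70 and -7.19). Sftpd, surfactant protein D, a secreted lectin of innate defence, was at 0.649 against 26.6 FPKM single-end and 0.426 against 26.6 FPKM paired-end. Ctsr, a cathepsin protease best known from placenta, was at 0.112 against 10.7 FPKM single-end and 0.0375 against 9.33 FPKM paired-end. Car6, a secreted carbonic anhydrase, was at 0.394 against 9.64 FPKM single-end and 0.232 against 8.77 FPKM paired-end. In all of these the AROM columns lay below 1 FPKM and the BRCA columns above 8 FPKM.

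In the other direction, Gchfr, the feedback regulator of the enzyme that starts tetrahydrobiopterin synthesis, was at 64.9 against 1.16 FPKM single-end and 125 against 1.28 FPKM paired-end (differences of 4.93 and 5.79). Rarres1, a retinoic acid-responsive gene, was at 33.1 against 0.813 FPKM single-end and 38.0 against 1.04 FPKM paired-end. H2-Ea-ps, the class II alpha chain gene that is a pseudogene in C57Bl/6, was at 28.1 against 0.113 FPKM single-end and 13.2 against 0.0673 FPKM paired-end. For each of them the lower AROM column was well over 10 FPKM, while no BRCA column passed 2 FPKM. Whether the 2 genotypes share the labelled C57Bl/6 background at loci such as a and H2-Ea-ps was not tested. H2-Q1, a class I gene of the same gene complex, was at 5.04 against 0.421 FPKM single-end and 5.37 against 0.174 FPKM paired-end. Near-identical class I genes can share reads, so the values of H2 genes are uncertain. Psmc3ip, a factor of meiotic recombination, was at 23.1 against 4.65 FPKM single-end and 20.5 against 3.57 FPKM paired-end. Nap1l5, an imprinted gene, was at 7.55 against 1.07 FPKM single-end and 8.27 against 1.06 FPKM paired-end. Dmrt2, a DM-domain transcription factor, was at 21.3 against 4.14 FPKM single-end and 22.6 against 4.37 FPKM paired-end. Gsta4, a glutathione transferase that clears lipid peroxidation products, was at 82.8 against 21.1 FPKM single-end and 87.6 against 20.0 FPKM paired-end. Among the 15 highest genes, Cela1, an elastase, reached 17.5 against 4.03 FPKM single-end and 19.0 against 3.603 FPKM paired-end, and Myl4, a myosin light chain of atrial and embryonic muscle, 16.9 against 3.80 FPKM single-end and 14.96 against 3.27 FPKM paired-end. For every gene of this paragraph both AROM columns lay above both BRCA columns.

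**Figure D3:**
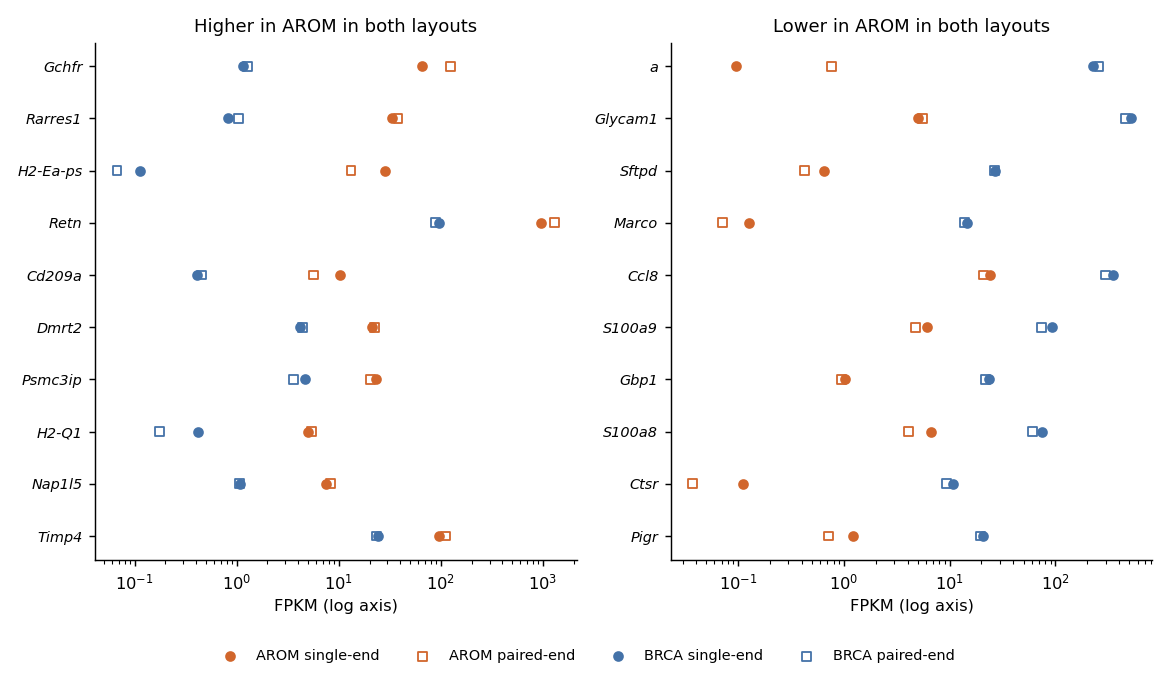
FPKM on a log axis of the 10 genes highest and the 10 lowest in AROM among those past 2-fold the same way in both layouts; orange is AROM, blue BRCA, filled circles single-end and open squares paired-end. For each gene both AROM columns lie on the same side of both BRCA columns, from a (0.0955 and 0.769 FPKM in AROM) to Retn (957 and 1307 FPKM in AROM).

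Fat cell genes were higher in AROM. Of 18 white adipocyte genes, 8 were past 2-fold higher single-end and 15 paired-end, with 8 in both and medians of 0.89 and 1.5001. With quantile normalization 4 were higher in both, and the medians were 0.53 and 1.05. Retn, the adipokine resistin, was highest of them at 957 against 96.7 FPKM single-end and 1307 against 87.8 FPKM paired-end (differences of 3.29 and 3.88). Cfd, adipsin, the protease of the alternative complement pathway made by fat, was at 5198 against 1487 FPKM single-end and 5829 against 1439 FPKM paired-end. Adrb3, the adrenergic receptor that triggers lipolysis, was at 107 against 29.1 FPKM single-end and 114 against 28.6 FPKM paired-end, with differences of 1.84 and 1.96. Nnat, an imprinted proteolipid gene of fat and brain, was at 548 against 208 FPKM single-end and 692 against 211 FPKM paired-end. Agt, angiotensinogen, was at 24.5 against 10.2 FPKM single-end and 30.3 against 6.65 FPKM paired-end. Cidec, which fuses lipid droplets, passed 2-fold in the paired-end columns alone at 636 against 482 FPKM single-end and 1318 against 468 FPKM paired-end. Mest, an imprinted gene of growing fat cells, ran against the list, at 10.4 against 30.7 FPKM single-end and 22.05 against 29.2 FPKM paired-end, and passed 2-fold lower in the single-end columns alone.

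Genes of fatty acid synthesis followed, with 6 of 21 higher single-end, 10 paired-end and 5 in both, and 1 lower paired-end (medians of 0.73 and 0.97). Under quantile normalization 3 were higher and 1 lower in both. Pnpla3, adiponutrin, a lipid droplet lipase induced by feeding, was at 78.3 against 20.6 FPKM single-end and 99.2 against 20.6 FPKM paired-end. Scd2, a stearoyl-CoA desaturase, was at 99.1 against 29.9 FPKM single-end and 105 against 29.9 FPKM paired-end (differences of 1.70 and 1.79). Thrsp, a thyroid-responsive activator of lipogenesis, was at 1921 against 785 FPKM single-end and 2419.8 against 726 FPKM paired-end. Mlxipl, the glucose-sensing transcription factor ChREBP, was at 43.1 against 15.6 FPKM single-end and 38.0 against 15.5 FPKM paired-end. Agpat2, which makes phosphatidic acid for triglyceride, kept its call in both layouts while its size moved, at 351 against 169 FPKM single-end and 637 against 155 FPKM paired-end (differences of 1.05 and 2.03). Scd1, the main desaturase of fat, passed 2-fold paired-end alone, at 4314 against 3370.3 FPKM single-end and 7702 against 3338 FPKM paired-end. Of 38 oxidative phosphorylation genes, 3 were past 2-fold higher single-end, 12 paired-end and 2 in both, none lower, with medians of 0.63 and 0.89. With quantile normalization 0 were higher in both, and the medians were 0.30 and 0.41. Ndufa2, a complex I subunit, was at 389 against 176 FPKM single-end and 448 against 165 FPKM paired-end. Cox6a2, the cytochrome oxidase subunit of striated muscle, was at 558 against 189 FPKM single-end and 381 against 184 FPKM paired-end. Summed over the adipocyte list, the level was 27587 against 11994 FPKM single-end and 33983 against 11244 FPKM paired-end. In the AROM columns 17 of the 18 were higher paired-end than single-end (median of 0.33), against a BRCA median of -0.028. The part of the amount of fat tissue in the other results was not tested.

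Most milk protein genes were lower in AROM in both layouts. Of 15, 8 were past 2-fold lower single-end and 9 paired-end, 8 in both and none higher, with medians of -1.23 and -1.69. Below 0 lay 13 single-end and 14 paired-end. Lalba lay above 0 in both layouts, at 68.2 against 46.3 FPKM single-end and 48.0 against 43.1 FPKM paired-end (differences of 0.55 and 0.15). Glycam1, a mucin-like milk protein that is also made by lymph node vessels, was at 4.99 against 512 FPKM single-end and 5.50 against 458 FPKM paired-end (differences of -6.42 and -6.14). Csn2, beta-casein, was at 764 against 3279 FPKM single-end and 486 against 3027 FPKM paired-end. Csn1s2a was at 554 against 2153 FPKM single-end and 367 against 1996 FPKM paired-end. Csn3, kappa-casein, was at 159.6 against 478 FPKM single-end and 88.7 against 421 FPKM paired-end. The caseins were thus read in all 4 columns of these nulliparous glands, several-fold lower in AROM. Wap, whey acidic protein, was called in both layouts but differed most between them, at 3.95 against 225 FPKM single-end and 57.1 against 206 FPKM paired-end, with differences of -5.51 and -1.83. Its BRCA columns lay close together, and its AROM columns did not. Csn1s2b behaved in the same way at 0.183 against 13.7 FPKM single-end and 4.19 against 12.5 FPKM paired-end. Muc15, a mucin of the milk fat membrane, passed 2-fold paired-end alone at 79.7 against 148 FPKM single-end and 42.0 against 137 FPKM paired-end.

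The prolactin signal reaches milk genes through STAT5, whose palindromic site has the letters TTCNNNGAA. In the RefSeq windows from 250 bases before to 50 after the start (build GRCm38.p6), 9 of the 15 milk genes had a window and 4 of these held the letters, Csn1s1, Csn1s2a, Csn2 and Glycam1, all of them among the 6 called lower in both layouts. Of the 8412 genes analysed that had a window, 8.40% held them, and so did 8.30% of all 32851 windows. The stretches around the matches of 3 of these genes are shown, with the letters in capitals, because these milk genes were lower in both layouts and hold the site before their start.
Glycam1: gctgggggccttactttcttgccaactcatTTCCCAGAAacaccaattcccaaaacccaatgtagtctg
Csn2: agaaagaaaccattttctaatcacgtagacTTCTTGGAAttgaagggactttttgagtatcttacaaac
Csn1s1: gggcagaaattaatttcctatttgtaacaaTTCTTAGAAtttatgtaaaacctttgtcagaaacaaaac
They lie at chr15:103565188-103565256, minus strand (Glycam1), chr5:87699480-87699548, minus strand (Csn2) and chr5:87666078-87666146, plus strand (Csn1s1), with the match 145, 93 and 100 bases before the start. A match describes letters and is not shown to be a bound site. Stat5a and Stat5b, the factors themselves, were not past 2-fold in either layout. Of 11 genes of the prolactin and alveolar pathway, 2 were lower in both layouts and 5 paired-end, with medians of -0.43 and -0.83. Elf5, the transcription factor of alveolar progenitors, was at 39.0 against 98.3 FPKM single-end and 21.1 against 95.8 FPKM paired-end. Ehf, its epithelial relative, was at 21.3 against 67.1 FPKM single-end and 11.0 against 63.3 FPKM paired-end.

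Luminal epithelial genes were lower with a size that differed between layouts. Of 18, 12 were past 2-fold lower single-end, all 18 paired-end and 12 in both, with medians of -1.13 and -1.81. Cldn4, a tight junction claudin, was at 13.6 against 54.9 FPKM single-end and 8.39 against 55.9 FPKM paired-end (differences of -1.93 and -2.60). Spint1, an inhibitor of epithelial surface proteases, was at 5.41 against 23.2 FPKM single-end and 3.55 against 22.5 FPKM paired-end. St14, the protease matriptase that it inhibits, was at 15.9 against 42.3 FPKM single-end and 9.04 against 43.4 FPKM paired-end. Cdh1, E-cadherin, was at 22.6 against 58.1 FPKM single-end and 13.2 against 59.3 FPKM paired-end. Krt7, a simple-epithelial keratin, was past 2-fold paired-end alone at 29.6 against 42.3 FPKM single-end and 15.99 against 41.0 FPKM paired-end. All 18 were lower in the paired-end than in the single-end AROM column (median of -0.73), while the BRCA median was -0.024. Summed, the list stood at 687 against 1368 FPKM single-end and 399 against 1348 FPKM paired-end. In the AROM columns 12 of the 15 milk genes were lower paired-end than single-end, a count to be read beside the 76.9% of all genes that were. The part of the amount of epithelium in the milk result was not tested. Of 10 luminal progenitor genes, 5 were lower in both layouts and 1 was higher single-end alone. The higher gene was Hey1, at 9.07 against 3.61 FPKM single-end and 5.58 against 3.83 FPKM paired-end. Kit, the receptor of stem cell factor, was at 15.7 against 40.4 FPKM single-end and 9.21 against 39.1 FPKM paired-end. Gabrp, a GABA receptor subunit of these cells, was at 2.82 against 11.2 FPKM single-end and 1.54 against 10.7 FPKM paired-end.

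Hormone-sensing luminal genes did not share this direction. Of 11, 3 were past 2-fold higher single-end, and in the paired-end columns 1 was higher and 1 lower. Areg, amphiregulin, the EGF receptor ligand through which estrogen drives duct growth, was the only one called in both layouts, at 27.5 against 6.12 FPKM single-end and 13.9 against 6.19 FPKM paired-end (differences of 2.001 and 1.05). Tnfsf11, RANKL, the paracrine signal of progesterone, was at 4.83 against 1.15 FPKM single-end and 2.51 against 1.12 FPKM paired-end, past 2-fold single-end alone. Cited1, a coregulator of the estrogen receptor, was at 24.2 against 10.4 FPKM single-end and 17.3 against 8.94 FPKM paired-end and also passed it single-end alone. The medians of the list, 0.37 and 0.087, lay above those of all genes, and 2 of its genes were higher in both layouts with median-ratio scaling and 3 with quantile normalization. Among 11 genes known to respond to estrogen the same 3 were past 2-fold higher single-end, and 3 others were lower paired-end, among them Myc and Ccnd1, drivers of cell cycle entry, at 19.1 against 34.1 FPKM single-end and 11.8 against 35.0 FPKM paired-end and 31.4 against 56.1 FPKM single-end and 20.4 against 56.7 FPKM paired-end. The medians of that list were -0.076 and -0.27 and crossed 0 under quantile normalization (0.045 and 0.016), so it has no stable direction. Among 9 steroid enzymes, Cyp1b1, which hydroxylates estradiol, was lower in both layouts at 10.54 against 43.7 FPKM single-end and 6.28 against 41.8 FPKM paired-end. Of 10 EGF family ligands and receptors Areg alone was higher. Hbegf, another ligand, was lower in both layouts, though not with either scaling, at 1.52 against 4.16 FPKM single-end and 1.17 against 4.54 FPKM paired-end, and the receptor gene Erbb3 was lower paired-end at 6.83 against 11.8 FPKM single-end and 3.81 against 11.5 FPKM paired-end.

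Proliferation genes were lower in AROM. Of 32, 11 were past 2-fold lower single-end, 23 paired-end and 11 in both, none higher, with medians of -0.88 and -1.28. Birc5, survivin, a chromosomal passenger protein, was at 5.02 against 20.4 FPKM single-end and 3.28 against 18.8 FPKM paired-end (differences of -1.83 and -2.21). Top2a, the topoisomerase that untangles replicated DNA, was at 5.27 against 17.0 FPKM single-end and 2.79 against 16.02 FPKM paired-end. Mki67, the Ki-67 antigen, was at 3.78 against 11.0 FPKM single-end and 2.11 against 10.6 FPKM paired-end. Kif11, the kinesin that separates spindle poles, was at 1.92 against 6.24 FPKM single-end and 1.08 against 5.80 FPKM paired-end, and Aurka, a spindle kinase, passed 2-fold paired-end alone at 4.90 against 7.16 FPKM single-end and 2.24 against 7.33 FPKM paired-end. In the AROM columns 31 of the 32 were lower paired-end than single-end, beside 76.9% of all genes. Of 24 recombination and repair genes Brca1 alone was called in both layouts, beside 4.92% of all genes lower in both. Under quantile normalization none of the 24 was. The medians were -0.28 and -0.56, and the single-end one crossed 0 under quantile normalization (0.0041).

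Direct targets of p53 showed no common direction, with 2 of 24 higher and 1 lower in both layouts and medians of 0.0083 and -0.36. Under quantile normalization the 1 lower was not called in both. Of all genes, 1.41% were higher and 4.92% lower in both layouts. Phlda3, a repressor of AKT, was higher in AROM at 153 against 51.5 FPKM single-end and 241 against 56.1 FPKM paired-end (differences of 1.55 and 2.08). Gadd45a, a DNA damage-inducible gene, was at 31.5 against 11.8 FPKM single-end and 27.6 against 9.49 FPKM paired-end. Pmaip1, the death protein NOXA, was lower at 1.19 against 3.95 FPKM single-end and 0.714 against 3.76 FPKM paired-end. Perp, a desmosomal protein of epithelium, was lower paired-end alone at 13.9 against 24.7 FPKM single-end and 7.55 against 23.4 FPKM paired-end.

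Interferon-stimulated genes were lower in AROM with similar size in both layouts. Of 30, 19 were past 2-fold lower single-end, 24 paired-end and 18 in both, with medians of -1.31 and -1.55. Ifi44 was lowest at 1.59 against 17.8 FPKM single-end and 0.938 against 16.8 FPKM paired-end (differences of -2.86 and -3.20). Oasl2 and Oasl1, relatives of the enzymes that make the RNase L activator, were at 4.48 against 25.4 FPKM single-end and 3.82 against 23.7 FPKM paired-end and at 0.797 against 6.07 FPKM single-end and 0.678 against 6.12 FPKM paired-end. Ifit1, which binds foreign RNA caps, was at 2.28 against 13.1 FPKM single-end and 2.09 against 12.6 FPKM paired-end. Irf7, the transcription factor that amplifies interferon production, was at 8.67 against 40.3 FPKM single-end and 9.19 against 38.0 FPKM paired-end. The BRCA columns were the higher ones in each. Ifi27l2a was called in the opposite direction in both layouts, at 2555 against 678 FPKM single-end and 2839 against 631 FPKM paired-end, by far the most abundant of the list. With it, the summed level of the list was higher in AROM, at 3052 against 1615 FPKM single-end and 3281 against 1542 FPKM paired-end, whereas the median was lower.

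The interferon-activated complex ISGF3 binds a direct repeat of TTTC spaced by any 2 bases, which reads as GAAA repeated at the same spacing on the other strand. It was searched on both strands. Of 22 listed genes with a RefSeq promoter window, 12 (54.5%) held it, against 3.78% of the 8412 genes analysed with a window and 3.44% of all windows. It stood in 6 of 11 genes called lower in both layouts and in 6 of the 11 others, so its share was alike in the called and the other members. Windows of 4 genes are shown, with the matching letters in capitals, because they hold the repeat singly, in pairs and in overlap.
Ifit1: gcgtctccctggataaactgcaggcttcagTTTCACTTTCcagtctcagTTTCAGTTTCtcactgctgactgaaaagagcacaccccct
Ifit3: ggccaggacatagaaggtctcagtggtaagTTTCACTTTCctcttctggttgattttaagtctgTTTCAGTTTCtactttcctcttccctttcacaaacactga
Oas3: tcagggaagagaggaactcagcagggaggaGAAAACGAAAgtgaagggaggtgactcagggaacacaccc
Isg15: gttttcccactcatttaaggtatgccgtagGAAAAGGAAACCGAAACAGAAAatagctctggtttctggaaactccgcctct
They lie at chr19:34640755-34640843, plus strand (Ifit1), chr19:34583343-34583446, plus strand (Ifit3), chr5:120777695-120777764, minus strand (Oas3) and chr4:156200845-156200926, minus strand (Isg15) of GRCm38.p6. Isg15 holds 3 overlapping matches, from 78 to 66 bases before the start, and Ifit1 and Ifit3 hold 2 each. These 4 genes were lower in AROM in both layouts. Isg15, a ubiquitin-like modifier, was at 9.16 against 29.4 FPKM single-end and 9.32 against 29.4 FPKM paired-end. Ifit3 was at 3.85 against 11.0 FPKM single-end and 3.64 against 14.4 FPKM paired-end. Oas3 was at 0.379 against 3.18 FPKM single-end and 0.269 against 3.25 FPKM paired-end.

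Of 12 interferon-gamma-inducible GTPases 4 were lower in both layouts. Gbp1, a guanylate-binding protein that attacks pathogen vacuoles, was at 1.02 against 23.4 FPKM single-end and 0.960 against 21.9 FPKM paired-end (differences of -3.59 and -3.54). Gbp3 was at 6.57 against 22.9 FPKM single-end and 4.89 against 22.4 FPKM paired-end, while its neighbour in the family Gbp4 was at 5.41 against 5.25 FPKM single-end and 3.44 against 5.39 FPKM paired-end. Members of this family are similar and can share reads, so their separate values are uncertain. Of 8 class II genes 4 were lower in both layouts, among them H2-Eb1 at 29.9 against 222 FPKM single-end and 45.6 against 231 FPKM paired-end. H2-Ab1 was at 118 against 299 FPKM single-end and 142 against 322 FPKM paired-end, with H2-Ea-ps the 1 higher. Of 11 class I genes 2 were lower in both layouts. Tap1, the peptide transporter, was at 12.4 against 33.7 FPKM single-end and 12.8 against 34.2 FPKM paired-end. H2-Q6 was at 9.38 against 28.8 FPKM single-end and 6.30 against 31.7 FPKM paired-end. The paired-end median of that list was -0.17 and crossed 0 with median-ratio scaling (0.115).

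Myeloid genes were lower in both layouts. Of 12 neutrophil genes 9 were lower single-end, 10 paired-end and 9 in both, and 1 was higher single-end alone, with medians of -1.72 and -1.97. The 9 include Ltf, which is also counted among the milk genes, and Lcn2. Single-end, Ltf was at 99.7 against 235 FPKM and Lcn2 at 196 against 543 FPKM, of a list sum of 330 against 989 FPKM. S100a9 and S100a8, the pair that forms calprotectin, were at 6.08 against 92.2 FPKM single-end and 4.76 against 74.1 FPKM paired-end and at 6.63 against 75.3 FPKM single-end and 4.11 against 61.1 FPKM paired-end. Ngp, a granule protein, was at 0.187 against 6.79 FPKM single-end and 0.0877 against 7.26 FPKM paired-end. Retnlg, a resistin relative of neutrophils, was at 0.610 against 7.77 FPKM single-end and 0.446 against 6.75 FPKM paired-end. Il1b, interleukin-1 beta, was at 0.624 against 5.73 FPKM single-end and 0.350 against 4.94 FPKM paired-end. Macrophage genes gave 10 of 28 lower single-end, 19 paired-end and 10 in both. Marco, a scavenger receptor, was at 0.128 against 14.5 FPKM single-end and 0.072 against 13.8 FPKM paired-end (differences of -3.78 and -3.79). Clec7a, the beta-glucan receptor dectin-1, was at 2.21 against 12.4 FPKM single-end and 1.67 against 11.4 FPKM paired-end. Clec4n, dectin-2, was at 2.23 against 11.5 FPKM single-end and 1.48 against 10.9 FPKM paired-end. The list summed to 820.5 against 1514 FPKM single-end and 634 against 1439 FPKM paired-end. Dendritic cell genes were lower in 4 of 11, among them Ccr7, the homing receptor for lymph nodes, at 0.307 against 5.70 FPKM single-end and 0.352 against 5.71 FPKM paired-end, with Cd209a, a DC-SIGN relative, higher at 10.4 against 0.404 FPKM single-end and 5.61 against 0.454 FPKM paired-end.

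Acute phase and epithelial defence genes were lower in 10 of 17 in both layouts, with medians of -1.47 and -1.47. Saa3, a serum amyloid made in inflamed tissue, was at 0.427 against 21.7 FPKM single-end and 1.88 against 18.9 FPKM paired-end. Saa1 was at 1.72 against 26.3 FPKM single-end and 3.26 against 26.1 FPKM paired-end. Saa2 was at 0.742 against 11.8 FPKM single-end and 1.61 against 10.9 FPKM paired-end. The amyloids kept their call, but their paired-end AROM levels lay above the single-end ones. Hp, haptoglobin, lost it, at 189 against 629.97 FPKM single-end and 431 against 623 FPKM paired-end (differences of -1.73 and -0.53). Ctse, cathepsin E, was at 1.90 against 13.7 FPKM single-end and 1.37 against 13.7 FPKM paired-end. Chi3l1, a chitinase-like protein, was at 21.2 against 86.8 FPKM single-end and 14.4 against 82.6 FPKM paired-end. Of 12 complement genes 3 were lower in both layouts. C6, of the membrane attack complex, was at 0.557 against 4.38 FPKM single-end and 0.522 against 4.09 FPKM paired-end. Cfd was the 1 higher.

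B cell and T cell genes gave almost the same list medians in both layouts. Several of their AROM values lay under 1 FPKM, where the log2(FPKM + 1) scale flattens a change between layouts. Of 14 B cell genes 11 were lower in each layout and 10 in both, with medians of -1.70 and -1.66. Cd79a and Cd79b, the signalling chains of the B cell receptor, were at 1.46 against 16.003 FPKM single-end and 1.18 against 15.5 FPKM paired-end and at 2.02 against 13.2 FPKM single-end and 1.82 against 12.9 FPKM paired-end. Ms4a1, CD20, was at 0.174 against 6.83 FPKM single-end and 0.171 against 6.21 FPKM paired-end. Spib, a B cell transcription factor, was at 0.272 against 6.37 FPKM single-end and 0.188 against 6.61 FPKM paired-end. Of 16 T cell genes 10 were lower in both layouts, or 6 with quantile normalization, with medians of -1.20 and -1.19. Cd4, the helper T cell coreceptor, was at 1.05 against 6.21 FPKM single-end and 0.846 against 6.2004 FPKM paired-end. Lck, the kinase of the T cell receptor, was at 1.91 against 8.70 FPKM single-end and 1.97 against 8.14 FPKM paired-end. Il7r, the interleukin-7 receptor, was at 0.929 against 5.50 FPKM single-end and 0.498 against 5.08 FPKM paired-end. Plasma cell and antibody transport genes were lower in 5 of 8 in both layouts, with medians of -1.23 and -1.53. All 8 were lower in the paired-end than in the single-end AROM column, beside 76.9% of all genes. Pigr, the epithelial carrier of IgA, was at 1.24 against 20.4 FPKM single-end and 0.721 against 19.7 FPKM paired-end. Igj, the joining chain, was at 87.5 against 223 FPKM single-end and 59.1 against 206 FPKM paired-end.

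Of 6 genes listed for lymph node stroma and vessels 5 were also lower in both layouts, with medians of -1.93 and -1.91. The list is no separate marker of stroma. Glycam1 is also counted among the milk genes, and Ltb and Cr2 are also made by lymphocytes. Cxcl13, which draws B cells into follicles, was at 3.01 against 15.2 FPKM single-end and 2.36 against 13.4 FPKM paired-end. Ltb, lymphotoxin beta, was at 3.69 against 18.1 FPKM single-end and 3.26 against 18.2 FPKM paired-end. Cr2, complement receptor 2 of B cells and follicular dendritic cells, was at 0.012 against 1.53 FPKM single-end and 0.00729 against 1.48 FPKM paired-end. Summed, the 6 genes stood at 13.5 against 552 FPKM single-end and 12.0 against 495 FPKM paired-end, most of it Glycam1, and the 14 B cell genes at 6.55 against 66.2 FPKM single-end and 6.35 against 66.3 FPKM paired-end. Madcam1, a vessel addressin, was at 1.77 against 1.47 FPKM single-end and 0.827 against 1.35 FPKM paired-end and not past 2-fold. The part of lymph node tissue in the lymphocyte, interferon and chemokine differences was not tested.

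Chemokines were mixed. Of 13 CC chemokines 6 were lower in both layouts and 1 higher, and 11 lay below 0 in each layout. Of 12 CXC and CX3C chemokines 4 were lower in both layouts and 0 higher, or 1 higher with either scaling. Ccl8, a ligand for monocytes and eosinophils, was at 23.9 against 351 FPKM single-end and 21.0 against 294 FPKM paired-end (differences of -3.82 and -3.75). Ccl22, which draws regulatory T cells, was at 0.466 against 6.30 FPKM single-end and 0.532 against 6.21 FPKM paired-end. Ccl20, the ligand of CCR6, was at 0.0861 against 6.07 FPKM single-end and 0.0581 against 5.06 FPKM paired-end. Ccl24, eotaxin-2, was the 1 higher, at 9.13 against 2.64 FPKM single-end and 7.23 against 2.86 FPKM paired-end. Cxcl10, an interferon-induced T cell attractant, was lower at 0.806 against 7.10 FPKM single-end and 1.39 against 6.03 FPKM paired-end. Cxcl15 was past 2-fold higher single-end alone, at 5.36 against 1.37 FPKM single-end and 2.96 against 1.19 FPKM paired-end. Of 29 matrix genes 5 were lower in both layouts, namely Tnc, Fn1, Thbs1, Col12a1 and Spp1. Tnc, tenascin-C of remodelled stroma, was at 4.66 against 14.97 FPKM single-end and 2.80 against 14.4 FPKM paired-end. Fn1, fibronectin, was at 26.1 against 66.9 FPKM single-end and 16.4 against 67.4 FPKM paired-end. Among 15 matrix metalloproteinase and inhibitor genes, 4 were lower in both layouts and 1 higher, with medians of -0.30 and -0.67. Under quantile normalization 2 were lower and 1 higher in both. The 4 lower were Mmp3, Mmp7, Mmp13 and Timp1. Timp1 was at 5.94 against 17.4 FPKM single-end and 5.82 against 17.3 FPKM paired-end. The 1 higher was Timp4, an inhibitor of matrix proteases abundant in fat. It was at 95.7 against 24.2 FPKM single-end and 111 against 23.3 FPKM paired-end.

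**Figure D4:**
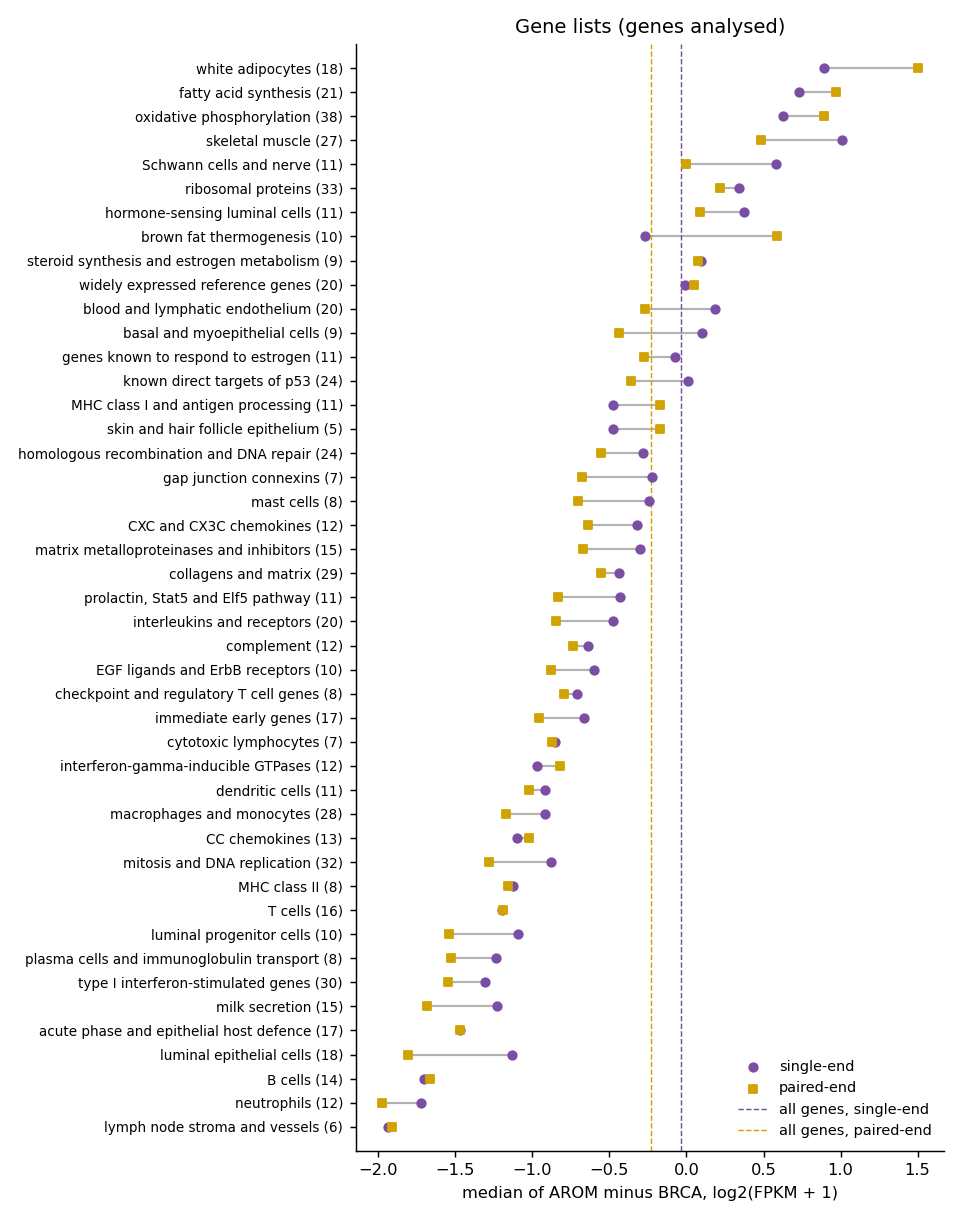
Median AROM minus BRCA on the log2(FPKM + 1) scale for each gene list with at least 5 genes analysed, purple circles single-end and gold squares paired-end, with dashed lines at the medians of all genes (-0.038 and -0.23). Lymph node, B cell and T cell lists have nearly equal medians in both layouts, luminal epithelium lies further left paired-end, white adipocytes further right, and skeletal muscle and Schwann cells lie closer to 0.

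Several tissue lists lost or gained calls between the layouts, and skeletal muscle lost all of them. Of 27 muscle genes, 15 were past 2-fold higher in AROM single-end and none in either direction paired-end, with medians of 1.011 and 0.49. Mb, myoglobin, was at 1065 against 366 FPKM single-end and 618 against 344 FPKM paired-end (differences of 1.54 and 0.84). Mylpf, a fast-fibre myosin light chain, was at 4456 against 1601 FPKM single-end and 2934 against 1507 FPKM paired-end. Tnni2, fast troponin I, was at 4911 against 1842 FPKM single-end and 3014 against 1634 FPKM paired-end. Pvalb, parvalbumin, was at 2709.8 against 1054 FPKM single-end and 1622 against 893 FPKM paired-end. For each of these 4 the AROM value moved further between the layouts than the BRCA value. The giant sarcomere genes Ttn and Neb and the fast myosin heavy chain gene changed side. Ttn, titin, was at 33.4 against 31.3 FPKM single-end and 18.1 against 29.7 FPKM paired-end. Neb, nebulin, was at 43.6 against 43.1 FPKM single-end and 24.9 against 41.2 FPKM paired-end. Myh4, a fast myosin heavy chain, was at 1304 against 1061 FPKM single-end and 818 against 1129.9 FPKM paired-end. All 27 were lower in the paired-end than in the single-end AROM column, by a median of -0.66, against -0.049 in BRCA. Of all genes 76.9% were lower there, with a median of -0.24. With median-ratio scaling 7 of the 27 were past 2-fold higher in both layouts and the paired-end median was 0.77. With quantile normalization 0 of the 27 were, and the medians were 0.58 and 0.069.

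Nerve, vessel and basal cell genes kept few calls in both layouts. Of 11 Schwann cell genes, 4 were higher single-end and 2 in both. Pmp22, a protein of peripheral myelin, was at 111 against 51.8 FPKM single-end and 107 against 49.7 FPKM paired-end. Their medians were 0.58 and -0.0013, and the paired-end one turned positive with median-ratio scaling (0.15) and quantile normalization (0.498). Of 20 endothelial genes, Gpihbp1, which holds lipoprotein lipase on capillaries, was the 1 higher in both layouts, at 107 against 46.9 FPKM single-end and 93.6 against 44.6 FPKM paired-end, while 2 were with median-ratio scaling and 0 with quantile normalization. Icam1, Vcam1, Selp and Lyve1 were past 2-fold lower paired-end alone. The medians of 0.19 and -0.27 had opposite signs, and the paired-end one came to 0.00035 with median-ratio scaling. All 20 endothelial, all 11 Schwann and all 9 basal genes were lower in the paired-end than in the single-end AROM column, beside 76.9% of all genes. Oxtr, the oxytocin receptor of myoepithelium, was the basal gene higher in both layouts, at 47.6 against 15.7 FPKM single-end and 34.0 against 15.6 FPKM paired-end, and Krt15, a keratin, was lower paired-end alone at 5.11 against 6.98 FPKM single-end and 2.57 against 7.10 FPKM paired-end.

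Brown fat genes moved up instead. Their medians were -0.27 and 0.59, and none of 10 was higher and 2 were lower single-end, while 3 were higher and 1 lower paired-end. With quantile normalization the paired-end median was 0.15 and none was called in both. Elovl3, a fatty acid elongase of thermogenic fat, was at 13.3 against 12.9 FPKM single-end and 41.2 against 11.9 FPKM paired-end. Cox8b was at 1467 against 901 FPKM single-end and 1930.3 against 791 FPKM paired-end. Cox7a1 was at 705 against 394 FPKM single-end and 785 against 334 FPKM paired-end. Slc27a2, a fatty acid transporter, was lower single-end alone at 5.06 against 16.1 FPKM single-end and 14.1 against 15.6 FPKM paired-end. Dio2, which makes active thyroid hormone, was lower in both layouts at 1.21 against 4.14 FPKM single-end and 1.17 against 3.95 FPKM paired-end.

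**Figure D5:**
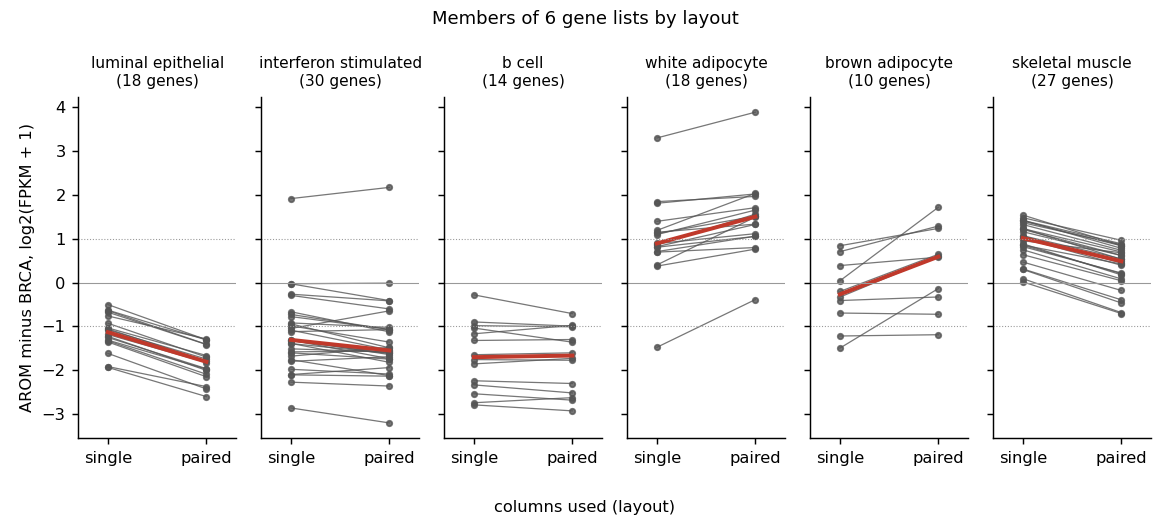
AROM minus BRCA on the log2(FPKM + 1) scale for each member of 6 gene lists, with a line joining its single-end and paired-end difference and the list median in red; dotted lines mark 2-fold. Most B cell lines are almost flat, all 18 luminal and all 27 muscle lines slope down, and white adipocyte lines slope up.

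Among single genes, the largest gaps between layouts came from 1 of the 4 columns standing apart. Ercc2, a helicase of nucleotide excision repair, was at 165 against 4.79 FPKM single-end and 4.72 against 4.50 FPKM paired-end, so the single-end AROM column stood far above 3 columns between 4 and 5 FPKM. Prmt2, an arginine methyltransferase, was at 232 against 10.6 FPKM single-end and 9.53 against 10.3 FPKM paired-end. Dgcr8, a cofactor of microRNA processing, was at 45.9 against 7.62 FPKM single-end and 4.01 against 6.72 FPKM paired-end. Eme1, a nuclease subunit, was at 12.4 against 1.81 FPKM single-end and 1.02 against 1.13 FPKM paired-end. In the reverse direction, Lars2, the mitochondrial leucyl-tRNA synthetase, was at 122 against 57.2 FPKM single-end and 1443 against 42.9 FPKM paired-end. Ndufs5, a complex I subunit, was at 8.27 against 5.50 FPKM single-end and 59.7 against 4.85 FPKM paired-end. Ncrna00085 was at 1.92 against 1.64 FPKM single-end and 21.8 against 1.45 FPKM paired-end, and in all 3 the paired-end AROM column stood apart. Apba3, an adaptor protein, had its outlying value in BRCA, at 23.7 against 26.1 FPKM single-end and 23.2 against 166 FPKM paired-end, as did Mtrnr2l, at 153 against 174 FPKM single-end and 107 against 21.5 FPKM paired-end. Tpt1, a translationally controlled tumour protein, differed by layout in both genotypes, at 13.0 against 6.12 FPKM single-end and 435 against 867 FPKM paired-end.

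The 15 genes past 2-fold in opposite ways were mostly small RNA names. Of them 12 begin with Mir or Snor, and 8 were listed at 0 in at least 1 column, where a 0 can be a failed estimate. Such RNAs are short, and a poly(A) library does not aim to capture their mature forms. Among all 76 such names, 61 differed past 2-fold between the BRCA layouts and 61 between the AROM layouts. The other 3 genes were Map3k15, Foxo3 and Apc. Map3k15, a kinase of stress signalling, was at 88.3 against 4.97 FPKM single-end and 3.89 against 13.3 FPKM paired-end, the sole gene among the 15 read above 0 in every column that is no small RNA. Foxo3 and Apc, named because they complete the count, were listed at 0 in the single-end BRCA column. Reference genes stayed within 2-fold in both layouts apart from Gapdh, which passed it paired-end and was read higher in that layout in both genotypes, at 447 against 293 FPKM single-end and 1592 against 741 FPKM paired-end, and Rplp2 was the 1 of 33 ribosomal protein genes that did, at 679.5 against 411 FPKM single-end and 1390.3 against 559 FPKM paired-end.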

How the data were processed

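Polyadenylated RNA of whole mammary glands was sequenced as TruSeq libraries on a HiSeq instrument, per the labels' protocols. The submitters' processing notes name TopHat and Cufflinks, with FastQC and Trim Galore, and build mm9; versions, strand handling and how libraries were pooled are not stated there. The authors deposited 1 table of FPKM values, of which 4 columns were used as deposited and 4 columns of other genotypes were not. Loci without a name (8119), with several symbols (585) or with a shared symbol (1719) were left out. The log2 of FPKM + 1 was subtracted within each layout with pandas 2.3.3, and the rule was tested on simulated data. The limma fit planned for single libraries could not be run, because each group has 1 pooled column.

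The genes, the 46 gene lists and the comparison were chosen with earlier results of these data known. Named genes were those altered by design, the 15 highest and 15 lowest called in both layouts, the 8 furthest apart between layouts in each direction, and up to 5 members of a list by the smaller difference and 3 by the gap. Names beginning Gm, Mir, Snor or LOC or holding Rik, and genes listed at 0, were not ranked. Outside this rule, Krt8, Adipoq and Acta1 were named as tissue markers, and Csn1s1, Lalba, Ifit3, Oas3, Isg15, Stat5a, Stat5b, Lyve1, Foxo3 and Apc after their values were seen. Promoter windows are from RefSeq (GRCm38.p6), a later build than that of the files, so no coordinates of the files' loci are given. Values of some genes that the rule names are left out here.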

Additional observations from a re-analysis of the deposited data

Results flagged for a closer look

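The 2 layouts gave opposite calls for 15 genes, each at least 2-fold higher in AROM in one layout and at least 2-fold lower in the other; with 1 pooled column per group this difference between layouts was not tested. Of the genes that could be ranked, this held for Map3k15, whose AROM minus BRCA difference on the log2(FPKM + 1) scale was 3.90 single-end and -1.54 paired-end. Its levels were 88.3 against 4.97 FPKM single-end and 3.89 against 13.3 FPKM paired-end.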

How the results depend on the processing

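No paired analysis was possible because each group has a single pooled column that carries no replicate number, and for the same reason no replicate could be left out. Counts are given as higher and lower single-end, higher and lower paired-end, higher and lower in both layouts, then opposite. At a 1.5-fold call they were 1306, 1794, 1389, 3344, 857, 1696 and 24, and at 3-fold 65, 173, 116, 326, 34, 143 and 7. A pseudocount of 5 gave 170, 200, 337, 362, 82, 167 and 10. A pseudocount of 0.1 gave 1070 lower single-end, 2063 lower paired-end, and 256 higher and 1006 lower in both. With FPKM of at least 1 in all 4 columns, 393 were lower single-end, 365 lower in both and 5 opposite. Without any minimum the Pearson r across genes was 0.685. Median-ratio scaling gave 997 higher and 803 lower paired-end and 265 higher in both, and quantile normalization 695 lower paired-end. In 2 alternatives chosen after seeing the data, 3 opposite genes were left without Mir and Snor names and 7 without genes listed at 0. Under the other settings these counts stayed within 1.5 times. Of the differences of the named genes, recomputed under 2 pseudocounts and 2 scalings, none past 2-fold changed sign, 226 fell below 2-fold and 69 came to pass it.

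Some list medians changed sign, and the cause was not tested. With FPKM of at least 1 in all columns these were estrogen response (0.057), Schwann cells (0.40) and skin (0.0077) paired-end and DNA repair single-end (0.019). Without a minimum they were estrogen response (0.011) and Schwann cells (0.091) paired-end and steroid enzymes (-0.067 single-end, -0.073 paired-end). Median-ratio scaling turned MHC class I (0.12), endothelium (0.00035), Schwann cells (0.15) and skin (0.060) paired-end and reference genes single-end (0.047). Quantile normalization turned estrogen response (0.045 and 0.016), steroid enzymes (-0.043 and -0.015) and ribosomal proteins (-0.089 and -0.21, from 0.34 and 0.22) in both layouts, DNA repair single-end (0.0041), and Schwann cells (0.50), skin (0.045) and reference genes (-0.21) paired-end. Depth is unknown, so no counting error can be given for any value.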
